A study of Arabidopsis thaliana with 12 samples.

Results

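HCT, ALDH2C4, UGT72E3 and UGT84A4 were the 4 genes of phenylpropanoid, monolignol and sinapate metabolism taken by name, each through a probe set assigned to that gene alone, out of 13286 loci measured in flowers of Arabidopsis thaliana on ATH1 arrays. The phenylpropanoid pathway turns phenylalanine into hydroxycinnamic acids, which plants build into lignin, into soluble esters such as sinapoylglucose and, as acyl groups, into decorated flavonols. In Arabidopsis the branch to monolignols supplies the alcohols of lignin and their storage glucosides, and the sinapate branch supplies the UV-absorbing sinapate esters for which the Brassicaceae are known. Of the 4 genes, HCT (AT5G48930, chromosome 5) encodes the transferase that makes p-coumaroyl shikimate on the way to the methoxylated monolignols. ALDH2C4, also called REF1 (AT3G24503, chromosome 3), encodes the dehydrogenase that oxidises coniferaldehyde and sinapaldehyde to ferulate and sinapate. UGT72E3 (AT5G26310, chromosome 5) encodes a glucosyltransferase of monolignols with a preference for sinapyl alcohol. UGT84A4 (AT4G15500, chromosome 4) encodes a glucosyltransferase that forms glucose esters of hydroxycinnamates.

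The RNA came from flowers of 10 natural accessions, which are inbred lines collected in different places, without any treatment that the labels name. By the study's methods 5 of them produce saiginols, the phenylacylated flavonols of Arabidopsis flowers (C24, Cvi, Da, RLD and Rsch), and 5 do not (Col-0, Ler, whose array is titled Laer, Sap, Stw and Ws). Col-0 and C24 were each hybridised to 2 arrays (ExpI and ExpII), and the other 8 accessions to 1 array each. Nothing in the labels says whether the duplicate arrays came from different plants, so a p-value between them measures the spread between arrays, which may be technical. The array titled Sap carries the ecotype label RLD and the array titled Stw carries the ecotype label Sap-0. Titles were used here, and the class differences of the 4 genes are also given without these arrays. The accessions differ across the whole genome, so the producer class and any other inherited difference between these lines cannot be told apart, and the array's probes were designed on Col-0 sequence, whose match to the other accessions was not tested.

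All 12 arrays had been scaled to the same trimmed mean of 100.01, with medians from 46.0 to 51.1. The 27 probe sets for bacterial control genes, which are built on bacterial and not plant sequence, reached at most 16.6 on any array. A signal at or below that value is read here as not distinguishable from background. Of 13436 probe sets tested, 4384 (32.6%) had a mean signal no higher than this. Flower identity could not be checked on organ identity genes, since none of the 7 listed has a usable probe set. Of 8 listed pollen genes 6 had a probe set, and they summed to between 732.7 and 2239.8 per array. Most of that sum came from AT5G45880 (1911.3 of 2239.8 in Da), and ANX1 was at background on all 12 arrays (0.8 to 13.1). AMS and AT5G07230, the 2 measured of 8 tapetum genes, summed to between 282.1 and 965.6. Each sample is flower material of mixed cell types, so fewer cells of a type and less RNA per cell cannot be told apart.

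HCT covered a range of 0.74 on the log2 scale over the 10 accessions, and 0.56 without Sap and Stw. Its signal was 270.5 and 307.8 on the C24 arrays, 222.5 in Cvi, 204.7 in Da, 230.7 in RLD and 236.1 in Rsch. In the non-producers it was 213.6 and 207.5 on the Col-0 arrays, 242.2 in Ler, 172.4 in Sap, 226.3 in Stw and 195.5 in Ws. Both C24 arrays stood above every other array, Sap was lowest, and the classes overlapped over most of their range. From Sap to C24 the signal differed by 1.68-fold. In the order of accession means (C24, Ler, Rsch, RLD, Stw, Cvi, Col-0, Da, Ws, Sap) only the step from C24 to Ler, 0.25 on the log2 scale, was larger than the difference of 0.19 between the C24 duplicates, which was the larger of the 2 duplicate differences. All other neighbours differed by less. With quantile normalization or median centring, 2 steps in the order exceeded the duplicates.

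ALDH2C4 varied more, mainly through 1 array. It gave 238.7 and 642.2 on the C24 arrays, 243.8 in Cvi, 205.4 in Da, 190.8 in RLD and 148.5 in Rsch. Among the non-producers it gave 141.4 and 166.6 on the Col-0 arrays, 251.1 in Ler, 207.8 in Sap, 225.8 in Stw and 143.3 in Ws. The second C24 array was the highest of the 12, while the first C24 array lay inside the range of the other accessions. The C24 duplicates thus differed by 1.42 on the log2 scale, almost the whole range of 1.44 between the accession means of C24 and Ws. No neighbours in the order (C24, Ler, Cvi, Stw, Sap, Da, RLD, Col-0, Rsch, Ws) differed beyond that duplicate spread.

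UGT72E3 had low signals, at background in most non-producers. The producers gave 27.5 and 23.4 on the C24 arrays, 28.7 in Cvi, 32.3 in Da, 40.0 in RLD and 61.6 in Rsch. The non-producers gave 21.3 and 7.9 on the Col-0 arrays, 9.3 in Sap, 2.2 in Stw, 1.9 in Ler and 1.5 in Ws. By the array titles, every producer array was above every non-producer array, although the first Col-0 array came close to the second C24 array. All 6 producer arrays were above the highest bacterial control of 16.6, and 5 of the 6 non-producer arrays were at or below it, the exception being the first Col-0 array. The array titled Sap (9.3) carries the ecotype label RLD, a producer. By that label a producer array would lie below the first Col-0 array (21.3), and the arrays would not separate. The order of accessions was Rsch, RLD, Da, Cvi, C24, Col-0, Sap, Stw, Ler, Ws, with a range of 4.65 on the log2 scale between Rsch and Ws, which became 1.83 when every signal under 16.6 was raised to that value. The only step beyond the Col-0 duplicate difference of 1.33 was that from Sap to Stw, 1.69, and both of those values were below the bacterial maximum, where signals have no reliable order. The step between the classes, from C24 to Col-0, was 0.90 and did not exceed that duplicate difference. With low signals raised this step was 0.41 against a duplicate difference of 0.34. That smaller duplicate difference came from raising the second Col-0 array from 7.9 to 16.6, so it is no measure of the spread between arrays.

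UGT84A4 was close to background, with a range of 0.77 on the log2 scale, and 0.63 without Sap and Stw. Its signal was 24.2 and 30.7 on the C24 arrays, 25 in Cvi, 23.4 in Da, 24.3 in RLD and 21.7 in Rsch. It was 18.5 and 28.6 on the Col-0 arrays, 18.4 in Ler, 27.1 in Sap, 30.2 in Stw and 17.3 in Ws. All 12 arrays were above 16.6, the 2 Col-0 arrays spanned most of the range of the whole set, and the classes overlapped fully. No neighbours in the order (Stw, C24, Sap, Cvi, RLD, Da, Col-0, Rsch, Ler, Ws) differed by more than the Col-0 duplicates, 0.60 on the log2 scale.

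**Figure D1:**
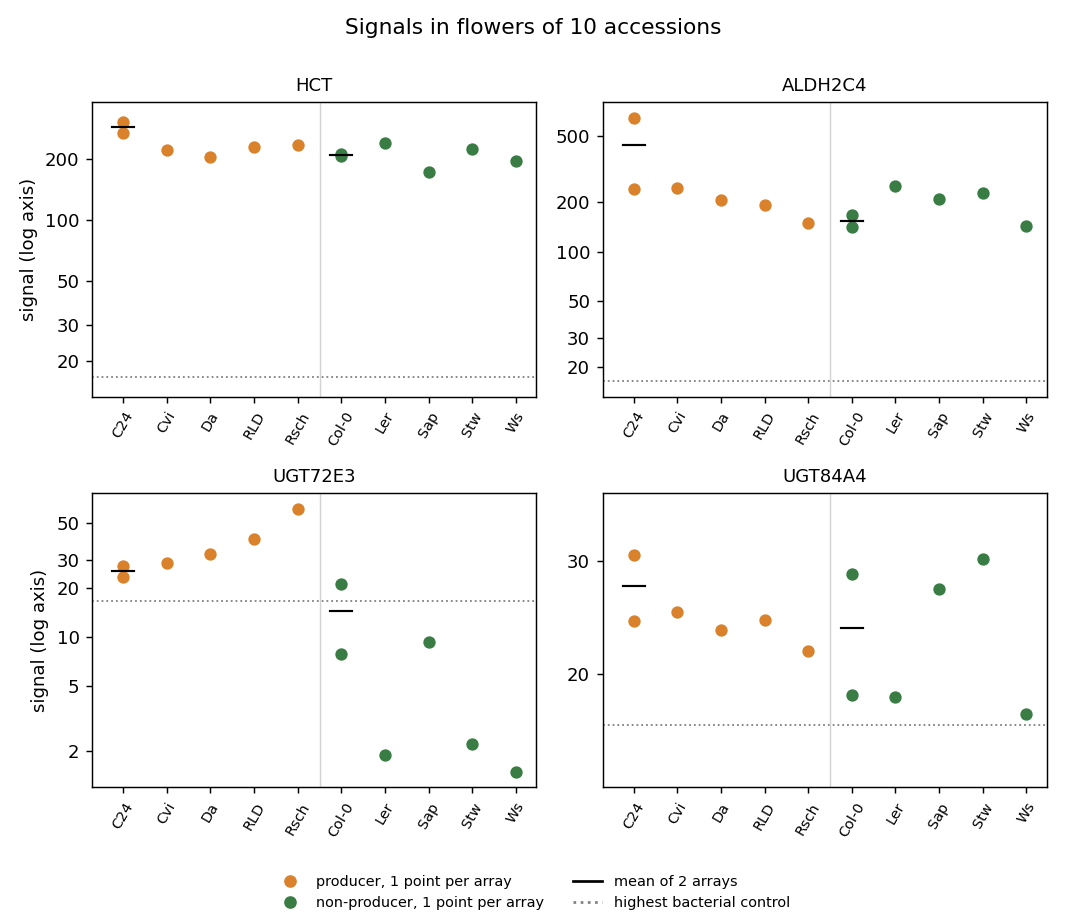
Signal (log axis) of HCT, ALDH2C4, UGT72E3 and UGT84A4 on each of the 12 arrays, 1 point per array, with producers on the left and non-producers on the right of each panel, a bar at the mean of duplicate arrays and a dotted line at the highest bacterial control, 16.6. With classes by array title, UGT72E3 is the gene of the 4 whose producer points, from 23.4 to 61.6, all lie above the non-producer points, from 1.5 to 21.3, and the second C24 array stands alone for ALDH2C4 at 642.2.

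Set beside probe sets of like mean signal, within 1.5-fold, the 4 genes differed in how much they varied. The SD of the log2 signal over the 10 accessions was 1.72 for UGT72E3, larger than that of 99.4% of 2138 probe sets of like signal, whose median was 0.39. That SD includes non-producer signals below the bacterial maximum, and with all signals under 16.6 raised to it the SD was 0.63, above that of 97.8% of the same probe sets (median 0.28). For ALDH2C4 the SD was 0.43, above that of 86.2% of 1497 like probe sets (median 0.24). HCT, at 0.20, was above 32.7% of 1482 like probe sets (median 0.24), and UGT84A4, at 0.24, was above 12.6% of 2158 (median 0.38), or 28.9% (median 0.29) with low signals raised. The SD between duplicate arrays of C24 and Col-0 was 0.72 for ALDH2C4 and 0.34 for UGT84A4, larger than their SD over accessions. For these genes the spread over accessions therefore cannot be told apart from spread between arrays. For HCT the duplicate SD was 0.1 and for UGT72E3 0.67, smaller than 0.20 and 1.72.

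Comparison of producers with non-producers asked which genes differ with the accumulation of saiginols, whose acyl groups come from this pathway. UGT72E3 averaged 37.6 ± 14.5 in the producers and 5.90 ± 5.8 in the non-producers (SD, n = 5 accessions each), 6.37-fold higher, and the classes did not overlap. HCT averaged 236.6 ± 31.7 against 209.4 ± 27.0, ALDH2C4 245.8 ± 114.0 against 196.4 ± 46.4 and UGT84A4 24.4 ± 2.1 against 23.3 ± 5.5, and for these 3 genes the classes overlapped. Among all probe sets tested, 164 (1.22%) separated the classes in this way, 62 (0.461%) with the producers higher.

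With limma on log2(signal + 1) none of the 13436 probe sets (0%) had an adjusted p under 0.05, while 849 (6.32%) had an unadjusted p under 0.05, 312 of them (2.32%) with the producers higher. Of the 4 genes only UGT72E3 was among these. The difference of UGT72E3 was 2.86 on the log2 scale (standard error 0.50, 95% interval 1.74 to 3.97), with an unadjusted p of 0.000177 and an adjusted p of 0.297 from limma. An exact two-sided permutation test over every division of the accessions into 5 and 5 gave 0.00794, the smallest value that this design allows, for a gene that was listed with its difference already known. Because most non-producer signals were within the range of the bacterial controls, the size of this difference depended on how they were treated. With every signal under 16.6 raised to that value it fell to 1.03, with a pseudocount of 16 to 1.30 and with a pseudocount of 64 to 0.53. The classes remained separate under each, which was fixed in advance, because these treatments do not change the order of producer and non-producer signals. Leaving out the Sap and Stw arrays, whose labels conflict, gave 2.97 (adjusted p = 0.625 from limma) for UGT72E3, 0.13 (0.976) for HCT, 0.34 (0.975) for ALDH2C4 and 0.31 (0.971) for UGT84A4. By ecotype label, with the array titled Sap averaged into RLD, the UGT72E3 difference was 2.91 (adjusted p = 0.557 from limma).

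For HCT the difference was 0.18 (95% interval -0.13 to 0.48, adjusted p = 0.846 from limma, exact permutation p = 0.198). For ALDH2C4 it was 0.22 (-0.36 to 0.80, adjusted p = 0.923 from limma, exact permutation p = 0.500), and without C24 it was 0.02. For UGT84A4 it was 0.09 (-0.28 to 0.46, adjusted p = 0.956 from limma, exact permutation p = 0.548). The intervals of all 3 genes stayed within 1 on the log2 scale in both directions. All 4 genes had a positive difference, with a median of 0.20, beside 6188 of all probe sets (46.1%) with a positive difference and a median of -0.02.

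Summed signals of markers for floral cell types did not separate the classes, with pollen genes at 757.7 to 2239.8 in producers against 732.7 to 1412.8 in non-producers, and the carpel and ovule genes (3 of 7 measured) at 112.6 to 189.4 against 144.9 to 189.2. The tapetum genes ran from 282.1 to 965.6 in producers and from 477.9 to 939.5 in non-producers, and RCA, the photosynthesis gene measured of 6 listed, from 2289.7 to 3042.0 and from 1877.4 to 3085.2. Rsch, the accession with the highest UGT72E3 signal, had the lowest tapetum sum, 282.1. Most of that sum came from 1 gene, AT5G07230 (247.6), while AMS was lower in Da (31.3) than in Rsch (34.5). The part of tissue composition in the UGT72E3 difference was not tested.

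The rest of the pathway could be followed only in part. Of 47 listed enzymes and transporters of the general, monolignol and sinapate steps, 13 had a probe set assigned to them alone, and none of 9 listed genes of the general pathway from phenylalanine to the activated hydroxycinnamates and none of 14 listed regulators did. In the producer comparison 0 of the 13 genes passed an adjusted p of 0.05 by limma, and UGT72E3 was the only one with an unadjusted p under 0.05, beside 6.32% of all probe sets. Of the differences, 8 were positive and 5 negative, with a median of 0.09, and among the 9 genes other than HCT, ALDH2C4, UGT72E3 and UGT84A4, 4 were positive and 5 negative.

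Within the UGT72E family the classes, taken by array title, separated for UGT72E3 and overlapped for UGT72E2. UGT72E2, which glucosylates coniferyl and sinapyl alcohol, had signals from 39.5 (Ws) to 61.2 (second C24 array), all well above the bacterial controls, and averaged 49.7 ± 7.7 and 48.0 ± 8.4 over the 5 accessions of each class (log2 difference 0.05, 95% interval -0.30 to 0.40, adjusted p = 0.972 from limma). The class difference of UGT72E3 was larger than that of UGT72E2 by 2.80 on the log2 scale, or by 0.98 with signals under 16.6 raised to that value, given as a description because UGT72E3 was listed with its difference known. UGT72E1, which acts on the corresponding aldehydes, was at or below 16.6 on all 12 arrays, from 1.0 in Cvi to 11 in RLD, so no level could be compared. UGT72B1, a related enzyme of monolignol conjugation, ran from 72.7 (first C24 array) to 199.8 (Rsch), with overlapping classes (log2 difference 0.14, adjusted p = 0.956 from limma).

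The β-glucosidases BGLU45 and BGLU46, which release monolignols from their glucosides, averaged less in the producers, but neither passed the test. BGLU45 averaged 15.6 ± 4.5 over the producers against 26.9 ± 13.1 over the non-producers (a log2 difference of -0.65, 95% interval -1.40 to 0.11, adjusted p = 0.785 from limma), with Ler (42.4) and Sap (38.3) highest and the classes overlapping. BGLU46 was mostly in the background range, at 8.3 ± 3.8 and 11 ± 5.1 (adjusted p = 0.834 from limma).

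Beside UGT84A4, 2 other genes of the same glucosyltransferase family were measured. UGT84A2, a further member of the family, was not among the measured genes. UGT84A1, UGT84A3 and UGT84A4 lie next to each other on chromosome 4 in the order of RefSeq genes (TAIR10.1). UGT84A3 had signals of 47.7 and 101.6 on the Col-0 arrays, 51.3 and 124.4 on the C24 arrays and 56.1 (Ws) to 130.7 (Rsch) elsewhere. Its class averages were 108.8 ± 16 and 89.8 ± 26.3 (log2 difference 0.31, adjusted p = 0.839 from limma). UGT84A1 ran from 2.2 in Cvi to 59.4 in RLD, with 52.8 in Da, and on 5 arrays it was at or below 16.6. Its log2 difference between classes was -0.0029 (95% interval -1.61 to 1.61), and its direction turned with the normalization. UGT84A3 and UGT84A4 were both lowest in Ws among the 8 accessions with 1 array, and both were higher on the second than on the first array of C24 and of Col-0, while UGT84A1 was highest in RLD and Da. No test of a shared or different pattern was made.

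**Figure D2:**
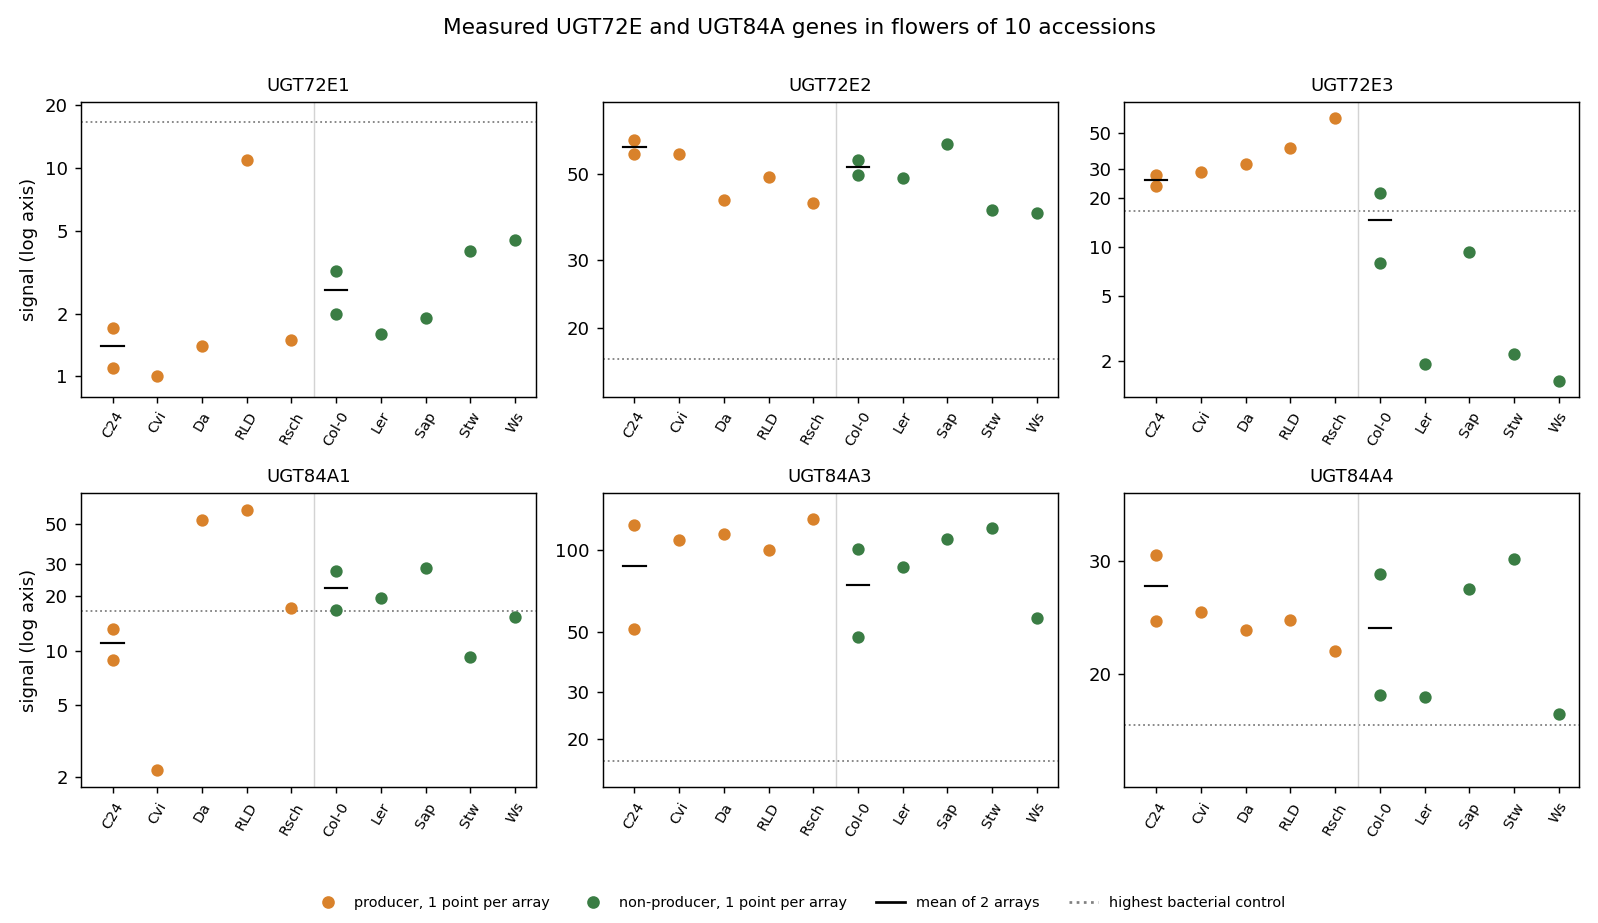
Signal (log axis) of the measured UGT72E genes (top) and UGT84A genes (bottom) on each of the 12 arrays, 1 point per array, with producers left and non-producers right, bars at the mean of duplicates and a dotted line at the highest bacterial control, 16.6. With classes by array title, the points separate for UGT72E3 and overlap for UGT72E2 and the 3 UGT84A genes. UGT72E1 lies below the dotted line throughout.

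CCR2, a cinnamoyl-CoA reductase, and CYP84A4, a relative of ferulate 5-hydroxylase, were the other measured genes on the monolignol synthesis list. A part of CYP84A4 in monolignol synthesis is not claimed here. CCR2 had signals from 1.5 (first Col-0 array) to 31.0 (Da) and a log2 difference of 0.52 between classes (adjusted p = 0.884 from limma). CYP84A4 was above 16.6 only in Sap, at 20.1, and its difference was -0.29 (adjusted p = 0.957 from limma), which became 0.19 without Sap.

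**Figure D3:**
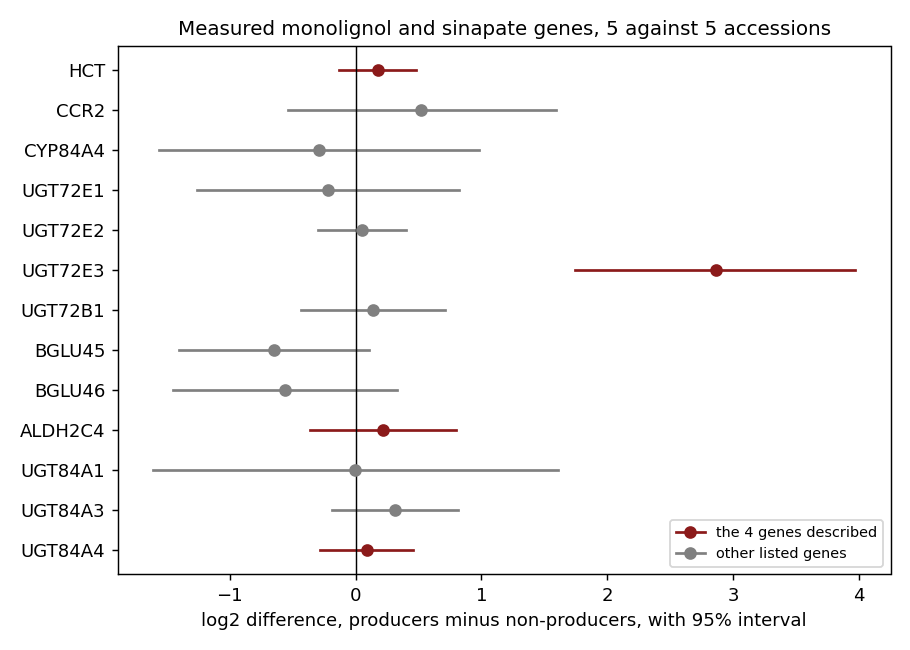
Log2 difference between producers and non-producers (x axis, points) with its 95% interval from limma (lines). The 13 measured genes on the monolignol and sinapate lists are shown, 5 accessions against 5. The interval of UGT72E3, from 1.74 to 3.97, is the only one of the 13 that does not include 0, and its point depends on non-producer signals within the bacterial control range.

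C24 and Col-0, the parents of the introgression lines of the study, were the only accessions with duplicate arrays. HCT was 270.5 and 307.8 in C24 against 213.6 and 207.5 in Col-0, without overlap, 1.37-fold higher (log2 difference 0.45, 95% interval -0.21 to 1.12, adjusted p = 0.800 from limma). ALDH2C4, at 238.7 and 642.2 against 141.4 and 166.6, had a log2 difference of 1.35 (-0.08 to 2.77, adjusted p = 0.672 from limma), which was 0.63 without the second C24 array and 2.06 without the first. UGT72E3, at 27.5 and 23.4 against 21.3 and 7.9, had a difference of 0.90 (-0.45 to 2.25, adjusted p = 0.801 from limma), which was 0.24 without the second Col-0 array and 1.57 without the first. UGT84A4 overlapped between the accessions (difference 0.23, -0.65 to 1.12, adjusted p = 0.923 from limma).

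None of the 13436 probe sets (0%) passed an adjusted p of 0.05 by limma in this comparison, with 1061 (7.9%) at an unadjusted p under 0.05, none of which was one of the 4 genes. Of the 4 genes, 3 did not overlap with C24 higher, and with 2 arrays against 2 this held for 2376 of all probe sets (17.7%), while 2452 (18.2%) did not overlap with C24 lower. Of the 9 other measured pathway genes, 2 were higher and 3 lower without overlap. Among these, CYP84A4 was 11.7 and 12.0 in C24 against 5.5 and 4.2 in Col-0, all in the background range (log2 difference 1.14, adjusted p = 0.392 from limma). These arrays are also part of the comparison of producers with non-producers, so the 2 comparisons are not independent.

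The duplicate arrays set how firmly any accession with a single array can be read. Between ExpI and ExpII the ratio was 1.14 in C24 and 0.97 in Col-0 for HCT, and 1.27 and 1.55 for UGT84A4. For UGT72E3 it was 0.85 in C24 and 0.37 in Col-0, and for ALDH2C4 2.69 in C24 and 1.18 in Col-0. ALDH2C4 was thus well reproduced in Col-0 and poorly in C24, and UGT72E3 the other way round. Among all probe sets, 702 (5.22%) rose from the first to the second C24 array by at least as much as ALDH2C4, and among the 3542 with a mean signal of 100 or more, 43 (1.21%) did.

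Markers of several floral cell types differed between the same C24 arrays. The pollen genes had a summed signal of 1054.8 on the first and 1801.1 on the second, against 1008.7 and 1048.3 on the Col-0 arrays. AT5G45880 went from 740.0 to 1420.7, BUPS1 from 57.2 to 143.2 and ANX2 from 10.0 to 34.4, whereas ACT11 went from 214.0 to 161.9 and ACT12 from 30.5 to 29.9. Da, with the highest pollen sum, 2239.8, had an ALDH2C4 signal of 205.4, within the range of the other accessions. The tapetum sum was 965.6 on the first C24 array and 670.9 on the second, with AT5G07230 at 787.8 and 480.9 but AMS at 177.8 and 190.0. The carpel and ovule sum was 156.9 and 112.6, with INO, an ovule gene, at 57.1 and 26.8. On the Col-0 arrays INO was 82.8 and 41.4. The part of tissue composition in the ALDH2C4 difference between the C24 arrays was not tested.

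**Figure D4:**
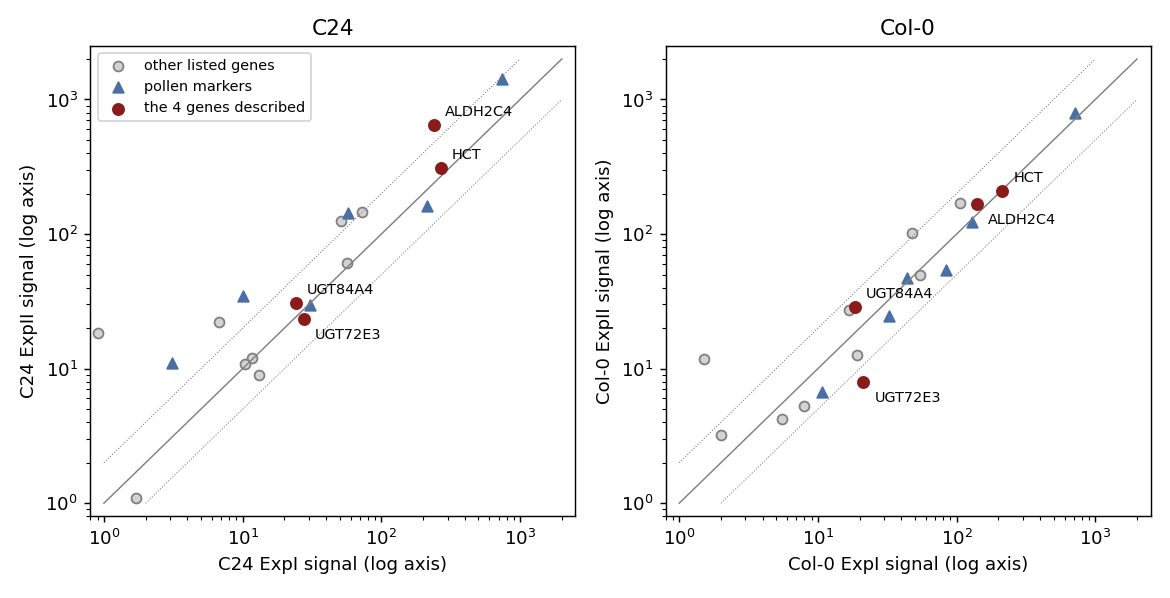
Signal on the first (ExpI, x axis) against the second (ExpII, y axis) array of C24 (left) and Col-0 (right), both axes logarithmic, for the 4 genes described (red), the 9 other measured pathway genes (grey) and the 6 pollen markers (blue triangles), with a solid line at equality and dotted lines at a 2-fold difference. ALDH2C4 lies beyond the upper dotted line in C24, at 238.7 and 642.2, and UGT72E3 beyond the lower one in Col-0, at 21.3 and 7.9.

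Levels of the 4 genes were compared with each other over the 10 accession means, in 6 pairs. HCT and ALDH2C4 gave Pearson's r = 0.60 (permutation p = 0.068, adjusted 0.408) and Spearman's rho = 0.48 (permutation p = 0.167, adjusted 0.500), and r was 0.46 without Sap and C24. ALDH2C4 and UGT84A4 gave r = 0.47 (permutation p = 0.168, adjusted 0.503) and rho = 0.58 (permutation p = 0.0885, adjusted 0.500), and r was 0.10 without C24 and Ws. HCT and UGT84A4 gave r = 0.11 (permutation p = 0.771, adjusted 0.914) and rho = 0.09 (permutation p = 0.813, adjusted 0.813), with r = 0.20 without Sap and C24. No pair passed the test. For the 3 pairs with UGT72E3 no pooled correlation is given, because its values fell into separate classes of 5 accessions, too few for a correlation within a class.

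The probe sets whose levels over the 10 accessions were most like each gene among probe sets with a mean signal at or above the median are named as a description, since all genes of an accession share its arrays. For HCT these were SIM, a cell cycle inhibitor (r = 0.890), CRT1b, a calreticulin (0.866), and ACT11, an actin (0.850), each highest in C24 by accession mean. ACT11 is also one of the listed pollen genes. It gave 161.9 on the second C24 array, below the 167.3 of Cvi and Ler. SIM gave 227.7 on the first C24 array, below the 229.1 of the second Col-0 array. For ALDH2C4 they were AT3G30390 (0.911), AT1G67800 (0.867) and AT5G51400 (0.856), also highest in C24 by accession mean. AT3G30390 gave 618.7 and 924.5 on the C24 arrays, against 700.5 in Ler. AT1G67800 gave 45.5 and 77.9, against 50.3 in Ler. For both genes, as for ALDH2C4 itself, only the second C24 array was above all other accessions. AT5G51400 was highest on both C24 arrays, at 440.3 and 413.6. For UGT72E3 they were AT1G04960 (from 89.9 in Stw to 131.3 in Rsch), AT3G61490 (from 64.3 in Stw to 149.3 in Rsch) and AT5G15640 (from 137.7 in Ws to 193.2 in Rsch), without an r here because of the separate classes. For UGT84A4 they were AT1G15130 (0.886), AT2G41380 (0.878) and AT1G06470 (0.877). AT2G41380 gave 10.4, at background, and 204.2 on the C24 arrays, so its r rests on the mean of unlike duplicates. AT3G61490 gave 150.3 and 65.5 on the C24 arrays, the second within the range of the non-producer arrays.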

How the data were processed

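Total RNA of flowers was hybridised by the authors to ATH1 arrays, 1 colour, and the deposited values are intensity signals per probe set on a linear scale, already scaled so that every array has the same trimmed mean. The software that summarised the probes is not given in the sources used here. No detection calls came into use. Of 22810 probe sets, 13513 were paired with 1 gene, 503 with several and 8794 with none in the platform annotation. The 13436 whose locus was in the RefSeq gene table were tested, and the other probe sets were left out.

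Signals were transformed to log2(signal + 1). Producers and non-producers were compared on the 10 accession means (duplicate arrays averaged first), and C24 and Col-0 on their 4 arrays, by limma 3.58.1 in R 4.3.3 (lmFit and eBayes, two-sided, Benjamini-Hochberg over all probe sets tested), with no further normalization. Single genes were also tested by exact permutation over all splits into 5 and 5, and correlations by 100000 permutations (Python 3.11.15, scipy 1.17.1). The scripts were tested on simulated data. The p-values and intervals measure the spread between accessions or arrays, and the number of arrays limits their precision.

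The 4 genes and the lists of pathway genes and cell type markers were chosen with earlier results of these data known. Genes named are the 4 genes, every listed gene with a probe set of its own (of several, the one with the highest mean) and, for each of the 4, the 3 probe sets with the highest Pearson correlation of log2(signal + 16) over the 10 accessions. Lists are described by counts and medians without a test. Alternatives were quantile normalization, median centring, pseudocounts of 16 and 64, omission of the lowest 25% of mean signals, a trended robust prior, accession as a random block, single duplicates, omission of Sap and Stw or use of their ecotype labels, leaving out each accession or array, and, chosen after seeing the data, raising low signals to the highest bacterial control and, for ranges over accessions, omitting Sap and Stw. No genome coordinates or sequences are given, and the study's metabolite and genetic data were not analysed here.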

Additional observations from a re-analysis of the deposited data

Results flagged for a closer look

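Values far from the rest of their class were searched for in 28 groups of 5 accessions (14 genes in each class), and 4 were found. For normally distributed values chance gives one in about 1 in 20 groups, and these signals were taken on the linear scale. The criterion was a gap to the nearest accession, divided by the range of the group, above Dixon's value of 0.71. On the log2(signal + 1) scale the ratio was 0.687 for CYP84A4 in C24, 0.669 for CYP84A4 in Sap and 0.652 for FPT2 in Ler, below that value, and 0.875 for UGT72E1 in RLD. None of the 4 was a value of HCT, ALDH2C4, UGT72E3 or UGT84A4.

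CYP84A4 was 11.8 in C24, while the other producers lay between 1.7 and 3.4. The same gene was 20.1 in Sap, while the other non-producers lay between 2.1 and 4.8, and the Sap array is one of those whose labels conflict. UGT72E1 was 11 in RLD, against 1.0 to 1.5 in the other producers, and all of these signals were in the range of the bacterial controls. FPT2, a serine carboxypeptidase-like gene, was 89.8 in Ler, against 17.6 to 31.3 in the other non-producers and 197.5 to 307.9 in the producers.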

How the results depend on the processing

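HCT, ALDH2C4 and UGT72E3 kept their direction and stayed above an adjusted p of 0.05 in both comparisons under every alternative run, 22 for the producer comparison and 12 for C24 against Col-0. The UGT72E3 difference between classes ran from 0.53 to 2.97 over the settings (adjusted p 0.161 to 0.625) and from 2.60 to 3.22 with 1 accession left out. UGT84A4 ran from 0.02 to 0.31 between classes over the settings (0.31 without Sap and Stw, adjusted p = 0.971), from -0.00094 to 0.19 with 1 accession left out (negative without Ws) and -0.07 to 0.54 between C24 and Col-0 with 1 array left out (negative without the first Col-0 array). HCT ran from 0.07 to 0.24 and ALDH2C4 from 0.10 to 0.36 between classes over the settings, and from 0.10 to 0.23 and 0.02 to 0.37 with 1 accession left out. The range over accessions, on the log2 scale, was 1.83 for UGT72E3 with low signals raised and 0.56 for HCT without Sap and Stw, both chosen after seeing the data.

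The number of probe sets past the threshold between classes was 0, and 2 with accession as a random block, with low signals raised, with the lowest signals left out, with a pseudocount of 16 or 64 and with the trended prior, and 0 to 2 with 1 accession left out (1 without Cvi, 2 without Ler). Between C24 and Col-0 it was 0, and 23 with low signals raised or the lowest left out, 32 with the trended prior, and 0 with any 1 array left out. None of these was one of the 4 genes. The duplicate differences of C24 and Col-0 correlated with r = 0.05 over 13436 probe sets. Of these, 32.6% had a mean signal in the background range, so this value cannot show whether arrays of the same experiment number belong together. With the replicate block the count stayed at 0 and ALDH2C4 had the same difference of 1.35 (adjusted p = 0.532), and no call changed.

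Directions turned only for genes far from the threshold. Between classes, CYP84A4 was 0.10 without Sap and Stw, 0.49 by ecotype label and -0.67 to 0.19 with 1 accession left out, UGT72E1 0.0036 and 0.01 with pseudocounts of 16 and 64, and BGLU46 0.002 with low signals raised. UGT72E2 ran from -0.01 to 0.13 and UGT72B1 from -0.01 to 0.30 with 1 accession left out. UGT84A1 was 0.12 with ExpI alone, 0.06 by ecotype label, 0.42 with low signals raised, 0.07 with median centring, 0.17 and 0.12 with pseudocounts of 16 and 64, 0.06 with quantile normalization and -0.43 to 0.63 with 1 accession left out. Between C24 and Col-0, BGLU46 was 0.07 with low signals raised and 0.09 and 0.05 with the pseudocounts, and with 1 array left out it ran from -1.98 to 1.37, UGT72B1 from -0.88 to 0.11 and UGT84A3 from -0.43 to 0.83. The causes were not tested.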

Other observations

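Of 11 listed genes of the flavonoid branch, which uses the same hydroxycinnamates, 5 had a probe set of their own, and 0 of them passed the test between producers and non-producers by limma (smallest adjusted p = 0.798, 1 positive and 4 negative differences, median -0.12). Between C24 and Col-0, 3 of the 5 did not overlap, all lower in C24, beside 2452 of all probe sets (18.2%) lower without overlap, with adjusted p-values of 0.242 or more from limma. UGT78D1, the flavonol 3-O-rhamnosyltransferase, was 36.9 and 8.8 on the C24 arrays against 161.9 and 216.4 on the Col-0 arrays, UGT78D3 was 10.3 on both C24 arrays against 31.5 and 39.9, and UGT89C1, the flavonol 7-O-rhamnosyltransferase, was 236.2 and 236.6 against 396.3 and 519.8.

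Of 8 listed genes of phenolamides and coumarins, which draw on the same acyl groups, 5 were measured and 0 passed the test between classes by limma (smallest adjusted p = 0.834, median -0.11). SHT, which makes the spermidine conjugates of the pollen coat, had the same class average of 430.3 in producers and in non-producers. F6PH1, the hydroxylase of scopoletin synthesis, was 1.6 in Cvi and between 36.9 and 102.2 on the other 11 arrays. None of the 8 listed markers of vessel and fibre walls had a probe set of its own, so lignifying tissue could not be followed in these flowers.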
